A study of Mus musculus with 7 samples.

Results

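The digestive enzymes of the pancreas are made by acinar cells, and the values below give the level of their transcripts in libraries made from sorted alpha cells. The set holds 33 acinar genes out of 55536 genes in the deposited count table. They were listed by symbol, with earlier results of these data known. All 33 were in the table and 32 had at least 1 count. RNA was sequenced from 4 control libraries (genotype Nkx2.2+/+ with Gcg-iCre and Rosa26:tdTomato) and 3 KO libraries (Nkx2.2fl/fl with the same Gcg-iCre and Rosa26:tdTomato), all from C57Bl/6J mice. Both groups therefore carried the Cre recombinase, which is made from the glucagon gene, and the red fluorescent reporter by which cells from pancreatic islets were sorted. The age of the mice is not given, and the labels do not say whether libraries came from separate animals or from pools, so p-values measure only the spread between these libraries. The study compared the groups to ask what the transcription factor NKX2.2 regulates in alpha cells in vivo. The sort marks cells that have used the glucagon gene and does not by itself show that a transcript came from them. Whether the acinar transcripts came from whole acinar cells, from free RNA or from the alpha cells was not tested.

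Acinar cells form most of the exocrine pancreas and surround the islets. They make trypsinogens, chymotrypsinogens, proelastases, procarboxypeptidases, lipases and a ribonuclease, store them in zymogen granules and release them into the ducts. Their enzyme genes are switched on together by the PTF1 complex, in which PTF1A and RBPJL take part, and the transcription factor BHLHA15 (also called MIST1) shapes their secretory architecture.

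The 7 libraries held 45483504 to 72456557 counts. Normalized counts are counts divided by the size factors of DESeq2. Nkx2-2 itself had 8596, 11199, 12297 and 9782 normalized counts in controls 1 to 4, against 7758 in KO 1, 7534 in KO 2 and 7694 in a KO library without a replicate number of its own (the unnumbered KO). Its transcript was present in every KO library, at a log2 fold change of -0.45 ± 0.13 (SE; DESeq2 adjusted p = 0.0223), and this call was lost on leaving out 5 of the 7 libraries, each in turn. Markers of alpha cells were abundant in all libraries: Gcg, the glucagon gene, had 6164736 to 8050552 normalized counts in controls and 2837930 to 4098502 in KO libraries, and Ttr (transthyretin) had 190935 to 288427 and 45127 to 74174.

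Acinar transcripts were a trace of every library and differed widely between libraries of the same group. The 33 genes together took 0.0142% of the counts of control 1 (95% Wilson interval 0.0139 to 0.0145%), 0.00314% of control 2 (0.00299 to 0.0033%), 0.0375% of control 3 (0.037 to 0.0381%) and 0.00218% of control 4 (0.00208 to 0.00229%). They took 0.0229% of KO 1 (0.0226 to 0.0234%), 0.0078% of KO 2 (0.00756 to 0.00804%) and 0.00798% of the unnumbered KO (0.00776 to 0.0082%). Control libraries thus held both the highest and the 2 lowest shares, and all 3 KO libraries lay between them. Controls had a mean share of 0.0143% ± 0.0164 (SD, n = 4) and KO libraries one of 0.0129% ± 0.0087 (SD, n = 3), so the SD of the controls exceeded their mean. Without control 3 the control mean was 0.0065%, below that of the KO libraries, and without KO 1 the KO mean was 0.00789%. These intervals cover counting error only. Most low counts were even numbers (84.4 to 88.9% of counts from 1 to 10), as happens when the mates of a pair add 1 count each, which makes the intervals too narrow. In bulk RNA, fewer acinar cells and less acinar RNA per cell cannot be told apart.

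**Figure D1:**
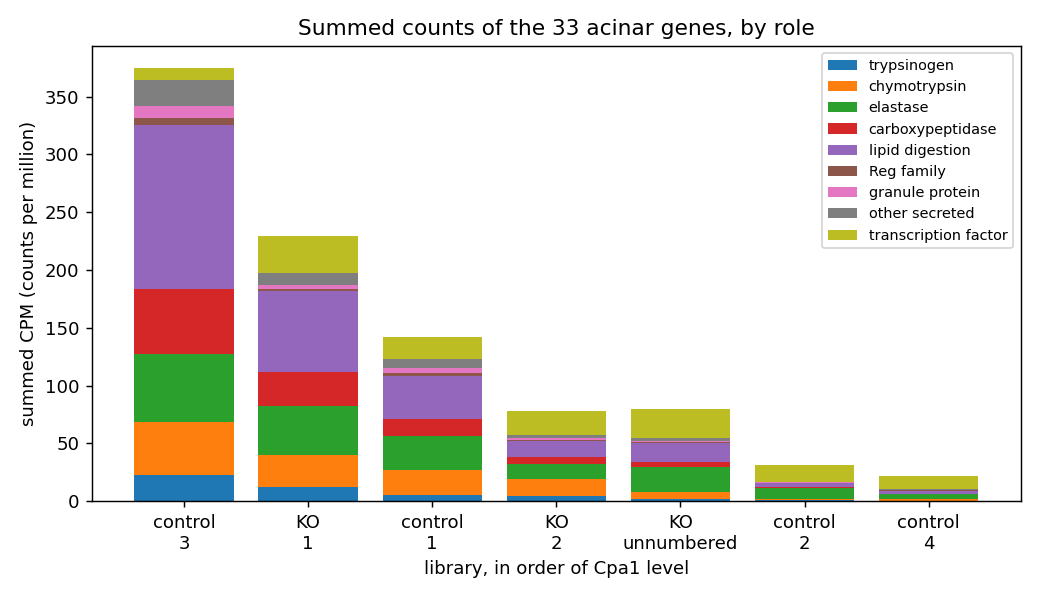
Summed CPM of the 33 acinar genes (counts scaled by the library total, y axis), stacked by role, in each of the 7 libraries in order of Cpa1 level (x axis). Control 3 is the tallest bar, at 375 CPM, and control 4 the shortest, at 21.8, with the 3 KO libraries between them.

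Lipid-digesting genes made up the largest role group in the richest library, 37.8% of the acinar counts of control 3, and 12.5% in control 4. The makeup of the trace also differed between libraries in single genes. Bhlha15 took 2.65% of the acinar counts in control 3 and 51.5% in control 4. Cela1 took between 8.11% (control 3) and 28.2% (control 2), while Pnlip took between 3.14% (control 2) and 16.8% (control 3). Per kilobase of exon, Ctrb1 had the highest mean normalized count of the 33 (778), followed by Pnlip (461), Cela1 (384), Rnase1 (324), Cel (302) and Cpa1 (295). These means weigh the libraries rich in acinar RNA most, and the order differed between libraries. Per kilobase, Ctrb1 led in controls 1 and 3, KO 1 and KO 2, Cela1 led in the unnumbered KO (386, against 229 for Ctrb1), and Bhlha15 led in controls 2 and 4 (237 and 168, against 53.7 and 32.9 for Ctrb1).

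The trypsinogens are the zymogens of trypsin, the protease that activates the other pancreatic zymogens. Of the 4 listed, Prss2 and Try5 were measured well above the low-count range and Prss1 and Prss3 were not. Prss2 had 159, 35.4, 800 and 11.6 normalized counts in controls 1 to 4, against 406 in KO 1, 45.4 in KO 2 and 50.4 in the unnumbered KO. Control 3 and KO 1 were the highest libraries of their groups. Try5 ranged from 4.72 in control 2 to 505 in control 3. Prss3 had at most 16 counts in a library and was at 0 in 5 libraries. Prss1 had 1 count in all. These genes lie close together on chromosome 6 and parts of their transcripts are identical to those of other copies, so some reads can be shared or lost between genes. Exon words here are the 50-base words of 1 transcript per gene, the longest protein-coding one where present. Of those of Prss3, 66.1% also occur in another annotated gene, most of them in Gm10334. The share was 54.9% for Prss1, 53.9% for Try5 and 7.8% for Prss2. The start of the coding sequence shows where they differ; each line gives the leading 90 bases of a 741-base coding sequence from the GENCODE M21 transcripts (GRCm38), with capitals where a base differs from Prss2. Over the whole coding sequence Prss1, Prss3 and Try5 are 89.6%, 88.7% and 90.3% identical to Prss2. Values of Prss1, Prss3 and Try5 are therefore uncertain.
Prss2: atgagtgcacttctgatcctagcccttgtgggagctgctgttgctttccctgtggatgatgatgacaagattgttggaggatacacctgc
Prss1: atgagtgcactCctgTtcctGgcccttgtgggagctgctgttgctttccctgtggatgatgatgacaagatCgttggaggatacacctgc
Prss3: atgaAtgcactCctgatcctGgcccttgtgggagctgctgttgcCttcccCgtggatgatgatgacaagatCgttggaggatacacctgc
Try5: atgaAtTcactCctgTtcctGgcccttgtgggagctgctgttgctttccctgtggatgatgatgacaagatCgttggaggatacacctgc

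The chymotrypsin genes were led by Ctrb1, which encodes chymotrypsinogen B. Controls 1 to 4 held 894, 47.2, 1825 and 28.9 normalized counts of it, against 1095 in KO 1, 692 in KO 2 and 201 in the unnumbered KO. Controls 2 and 4 lay below every KO library, and control 3 lay above all of them. Ctrl, which encodes a chymotrypsin-like protease, ranged from 25.9 to 928. Ctrc, a chymotrypsin that degrades trypsin, had at most 6 counts in a library.

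Among the elastases, which cut proteins after small residues, Cela1 had the highest mean normalized count per kilobase (384, beside 208 for Cela2a and 110 for Cela3b). It had 948, 508, 1809 and 155 normalized counts in controls 1 to 4, against 1371 in KO 1, 514 in KO 2 and 889 in the unnumbered KO. Its highest library was 11.7-fold above its lowest, the second smallest ratio among the enzymes for which one could be given. Cela2a ranged 88.1-fold, from 13.0 in control 2 to 1143 in control 3, and Cela3b ranged 37.5-fold, from 14.2 to 531. Cela3b shares 33.2% of its exon words with other genes, most with its copy Cela3a. Cela2a overlaps an annotated transcript of Ctrc on the same strand, which covers 17.7% of its exon length, so reads there could be assigned to either gene or to none.

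Cpa1 and Cpb1 encode procarboxypeptidases, which trim amino acids from the carboxyl end of peptides. Cpa1 had 388, 23.6, 1987 and 15.9 normalized counts in controls 1 to 4, against 911 in KO 1, 159 in KO 2 and 127 in the unnumbered KO. The ratio of its highest to its lowest library was 125, and both of those libraries were controls. Cpb1 had 411, 28.3, 1367 and 18.8 in controls, and 683, 143 and 83.0 in KO libraries, the same order of libraries as Cpa1. In the transcript checked for each gene, no 50-base word occurs in another annotated gene. Cpa1 was used as the reference for the other members.

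The lipid-digesting genes were led per kilobase by Pnlip. This gene, the pancreatic triglyceride lipase, had 887, 56.6, 3749 and 55.6 normalized counts in controls 1 to 4, against 1721 in KO 1, 318 in KO 2 and 294 in the unnumbered KO. Its order of libraries was that of Cpa1. Cel, the bile salt-dependent lipase, ranged from 21.7 in control 4 to 2186 in control 3, and Clps, the colipase that anchors Pnlip to fat droplets, ranged from 11.6 to 665. The lipase relatives Pnliprp1 and Pnliprp2 reached 1475 and 162 in control 3. Pla2g1b, a secreted phospholipase A2, stood apart from these, with 84.0, 59.0, 183 and 40.5 in controls and 52.8, 43.4 and 72.6 in KO libraries, a 4.52-fold range.

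The Reg genes encode small secreted lectins that acinar cells make at rest (Reg1) or raise on injury and inflammation (the Reg3 genes). Reg1 had 125, 7.08, 379 and 2.89 normalized counts in controls 1 to 4, against 106 in KO 1, 45.4 in KO 2 and 23.7 in the unnumbered KO, which again placed control 3 highest and controls 2 and 4 lowest. Reg2 had 18.2, 0, 7.84 and 2.89 in controls, and 0, 6.20 and 2.96 in KO libraries. Reg3b was counted in control 1 (20.4) and KO 2 (8.26) only, and Reg3a in control 1 (2.27), control 4 (2.89) and the unnumbered KO (1.48) only. Reg3g had 0 counts in each of the 7 libraries, which allows up to 3 counts in each. At this depth the 4 genes other than Reg1 could not be compared between groups.

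Genes for proteins of the zymogen granule were also highest in control 3. Sycn (syncollin, a granule membrane protein) had 36.3, 0, 133 and 8.67 normalized counts in controls 1 to 4, against 31.3 in KO 1, 24.8 in KO 2 and 7.41 in the unnumbered KO. Gp2, the main glycoprotein of the granule membrane, reached 293 in control 3 and had 1 count in control 4. Zg16, a granule lectin, reached 144 in control 3 and was at 0 in control 4, and Cuzd1 reached 54.9 and was at 0 in controls 2 and 4. Among the other secreted proteins, Rnase1 (the pancreatic ribonuclease) had 368, 42.5, 1088 and 43.4 in controls, and 487, 114 and 108 in KO libraries. Klk1, a tissue kallikrein, reached 230 in control 3 but shares 28.4% of its exon words, mostly with Klk1b5, and the serpin gene Serpini2 had at most 12 counts in a library.

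The 3 transcription factors did not share 1 pattern. Bhlha15 had 1043, 828, 591 and 588 normalized counts in controls 1 to 4, against 1675 in KO 1, 1141 in KO 2 and 1211 in the unnumbered KO. It was well counted in every library, also in controls 2 and 4, where most enzymes were near their lowest level. Ptf1a, which defines the acinar lineage, had 4.54, 0, 10.5 and 0 in controls, and 6.84, 2.07 and 0 in KO libraries. Rbpjl, its acinar partner, had 0, 0, 14.4 and 4.34 in controls, and 3.91, 22.7 and 0 in KO libraries. Exons of other genes lie opposite 40.4% of the exon length of Ptf1a, and the strand setting of the counting is not given in the sources used here, so its few counts cannot be assigned with certainty.

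Most of the members varied together over the libraries. Of the 33 genes, 23 had a mean normalized count of at least 10 over the 7 libraries, and the other 10 had at most 22 counts in any library. Of these 23, 22 were highest in control 3, the exception being Bhlha15. In 20 of the 23 the 3 highest libraries were control 3, KO 1 and control 1, and in 17 KO 1 was the second highest. In 18 of the 23 the 2 lowest libraries were controls 2 and 4. Control and KO libraries were thus mixed in this order. Control 3, the richest in acinar transcripts, had the fewest total counts (45483504) and control 4, the poorest, had the most (72456557), while control 2, also poor in them, had 48750632. The part of depth was not tested.

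**Figure D2:**
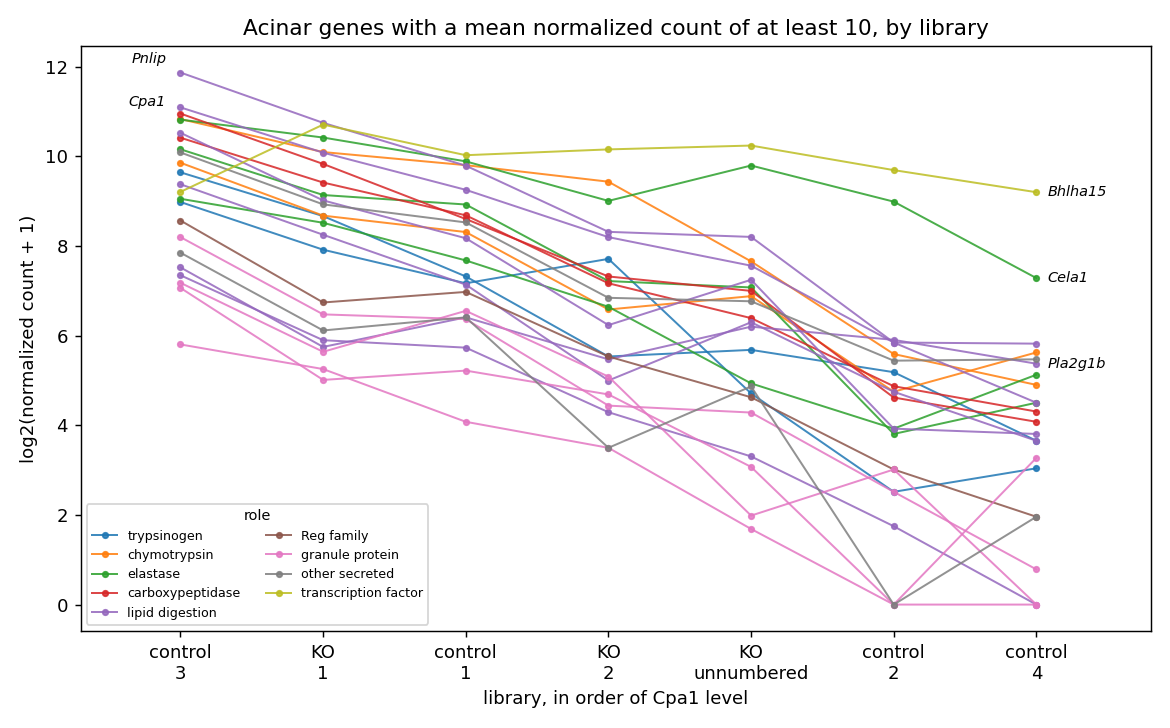
log2(normalized count + 1) (y axis) of the 23 acinar genes with a mean normalized count of at least 10, 1 line per gene coloured by role, over the 7 libraries in order of Cpa1 level (x axis). Nearly all lines descend together from control 3 to controls 2 and 4, while Bhlha15, Cela1 and Pla2g1b change less.

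Over the 7 libraries, the log2 levels of 18 of the 22 other members in this range had a Pearson r with Cpa1 of at least 0.9 (0.901 to 0.997; Spearman rho 0.893 to 1.0). The median r of the 22 was 0.96, beside -0.02 for all 19651 genes tested. Across those 19651 genes, 0.356% reached an r of 0.9. The threshold of 0.9 was chosen after values were seen. Pnlip (r = 0.997), Cpb1 (0.994) and Cel (0.992) lay closest to Cpa1, and their exact permutation p of 0.000198 is the smallest that 7 libraries can give. Of the 22 members, 20 had an unadjusted exact permutation p under 0.05 for Pearson's r, and 20 for Spearman's rho. With Benjamini-Hochberg adjustment over all genes tested, the exact permutation p of the 18 lay between 0.279 and 0.761 for Pearson's r and was at least 0.354 for Spearman's rho, so none passed. When control 3 and control 4, the libraries farthest from the median of Cpa1, were left out, 15 members still had an r of at least 0.9, and the 18 ranged from 0.832 to 0.998.

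The remaining 4 members had an r under 0.9. These were Zg16 (0.874), Sycn (0.842), Pla2g1b (0.675) and Bhlha15 (0.282). Zg16 and Sycn each had 0 counts in 1 library. Pla2g1b and Bhlha15 were counted in every library and varied less than the enzymes, with an SD of log2 level over the 7 libraries of 0.73 and 0.56, beside 2.55 for Cpa1. For Bhlha15 the Spearman rho was 0.321 and the exact permutation p was 0.528 for Pearson's r and 0.498 for Spearman's rho. Over the 5 libraries other than control 3 and control 4 its r was 0.847, while that of Pla2g1b was 0.043 there. Control 4 was lowest for both Cpa1 (15.9 normalized counts) and Bhlha15 (588). Control 3 was highest for Cpa1 (1987) but next to lowest for Bhlha15 (591), so of these libraries only control 3 went against the order of Cpa1.

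A small SD of the ratio of a gene to Cpa1 shows that the 2 kept their proportion. For the 18 members with an r of at least 0.9, the SD of the log2 level had a median of 2.33 (1.17 to 2.75), while the SD of the log2 ratio to Cpa1 had a median of 0.62 (0.29 to 1.57). Pnlip kept its proportion to Cpa1 most closely (SD of the log2 ratio 0.29). Cela1 followed the order of Cpa1 (r = 0.901) but over a narrower range, so that its ratio to Cpa1 varied more (SD 1.57) than its own level (SD 1.17). Cela1 thus kept 508 and 155 normalized counts in controls 2 and 4.

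A high r with Cpa1 was also found in genes that hardly varied. Outside both acinar lists the 10 genes with the highest r with Cpa1 over the 7 libraries were Rnps1, Zfp658, Kbtbd8, Fbxo4, Smc2, Ufsp2, Tmf1, Gm43852, 9030407P20Rik and Ywhaz, at an r of 0.945 to 0.989. Their highest library was only 1.14 to 3.58-fold above their lowest. Rnps1, the closest of them, had 3012, 2641, 3216 and 2512 normalized counts in controls 1 to 4, against 3059 in KO 1, 2832 in KO 2 and 2781 in the unnumbered KO. Of the 3544 genes whose log2 level had an SD of at least 1 (a threshold also chosen after values were seen), 22, or 0.621%, had an r with Cpa1 of at least 0.9. These 22 were 18 of the members, the other acinar genes Try4, 2210010C04Rik and Dmbt1, and 1 gene on neither list, Crispld2, which had 4.34 to 34.0 normalized counts.

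**Figure D3:**
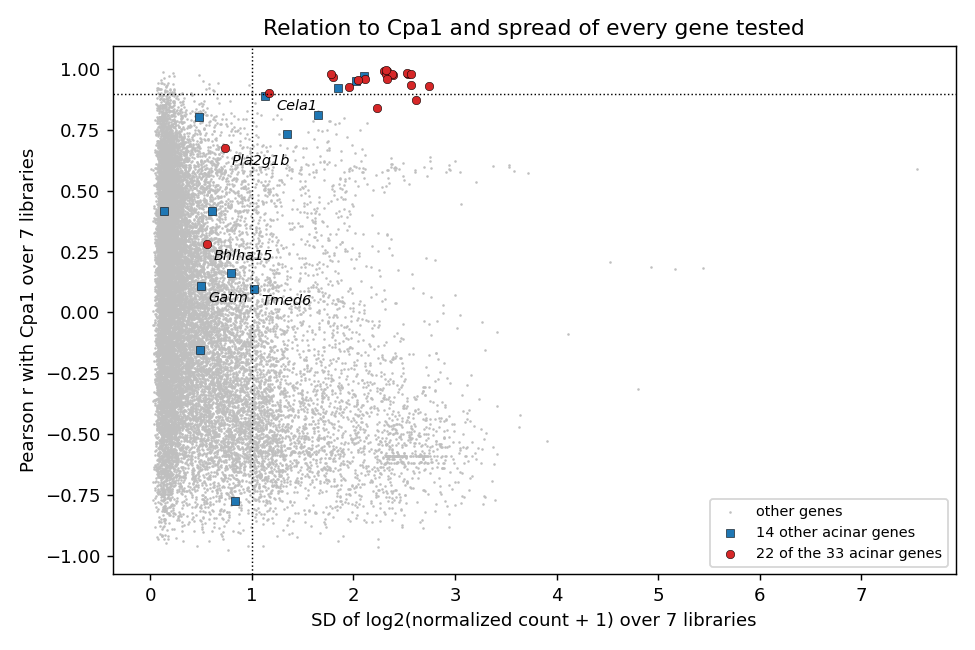
Pearson r with Cpa1 over the 7 libraries (y axis) against the SD of log2(normalized count + 1) over the same libraries (x axis), 1 point per gene with a mean normalized count of at least 10. The upper right field, with an r of at least 0.9 and an SD of at least 1 (dotted lines), holds 22 genes besides Cpa1, 18 of them members (red) and 3 other acinar genes (blue).

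The comparison of KO with control gave 1 call among the members, in Bhlha15, which was higher in KO. Its log2 fold change was 0.82 ± 0.24 (SE; DESeq2 adjusted p = 0.0192), and all 3 KO libraries (1141 to 1675) lay above all 4 controls (588 to 1043). Across all genes, DESeq2 called 4.39% (394 higher and 397 lower of 18023 with an adjusted p), and the call of 1 of 23 members is near that share. With edgeR no member was called (smallest adjusted p 0.181, which was that of Bhlha15), beside 1.05% of all genes, and the log2 fold change of Bhlha15 was 0.81. Of the 32 members with a DESeq2 p, 1 had an unadjusted p under 0.05, beside 6.89% of all genes. The groups did not overlap in 1 of the 23 members, again Bhlha15, beside 11.9% of all genes. The Bhlha15 call was lost without control 3 (log2 fold change 0.71, DESeq2 adjusted p = 0.113) and without KO 1 (0.62, adjusted p = 0.359).

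None of the 22 secreted proteins with an adjusted p passed the threshold in the comparison of 4 controls with 3 KO libraries. Their log2 fold changes ran from -1.16 to 0.11, with SEs of 0.56 to 1.84 and DESeq2 adjusted p-values of 0.816 to 0.999. The 95% interval of the log2 fold change of Cpa1 reached from -3.74 to 2.55, and that of Pnlip from -3.56 to 2.34, so neither a several-fold decrease nor a several-fold increase lay outside them. Cela1, with a narrower spread, had an interval of -1.52 to 1.74, and Pla2g1b one of -1.79 to 0.40. Of the 23 members, 21 had a log2 fold change below 0, with a median of -0.61, beside 48.3% of all genes and a median of 0.01. Since the members varied together, these 21 values do not count as separate observations.

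The direction of the fold changes rested on single libraries. Without control 3, 21 of the 23 members had a log2 fold change above 0 and the median was 0.78. Without KO 1, 22 of the 23 were below 0 and the median was -1.77. For Cpa1 the log2 fold change was 1.48 without control 3 and -2.08 without KO 1, beside -0.60 with all libraries. For Pnlip the values were 1.22 and -1.96, beside -0.61. Control and KO columns also share the numbers 1, 2 and 4, without a statement that a number marks a pair. Cpa1 was higher in the KO library of each such number (911 against 388, 159 against 23.6 and 127 against 15.9). With these numbers as a replicate block, in which control 3 has no partner, DESeq2 called 8 of the 23 members higher in KO, beside 2.91% of all genes, and the log2 value for Cpa1 became 2.25 (DESeq2 adjusted p = 1.61e-07). With the numbers of the sample titles alone, which leave the unnumbered KO without a partner too, 3 members were called higher, beside 1.69% of all genes, and Cpa1 had 1.87 (DESeq2 adjusted p = 9.13e-05). These block fits rest on the pairs numbered 1, 2 and 4, or 1 and 2, alone. So few pairs leave little from which to measure the spread of a gene, so their p-values are uncertain. The direction and the calls of the enzymes thus differed with and without the block. Whether the libraries are paired is not given in the sources used here.

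**Figure D4:**
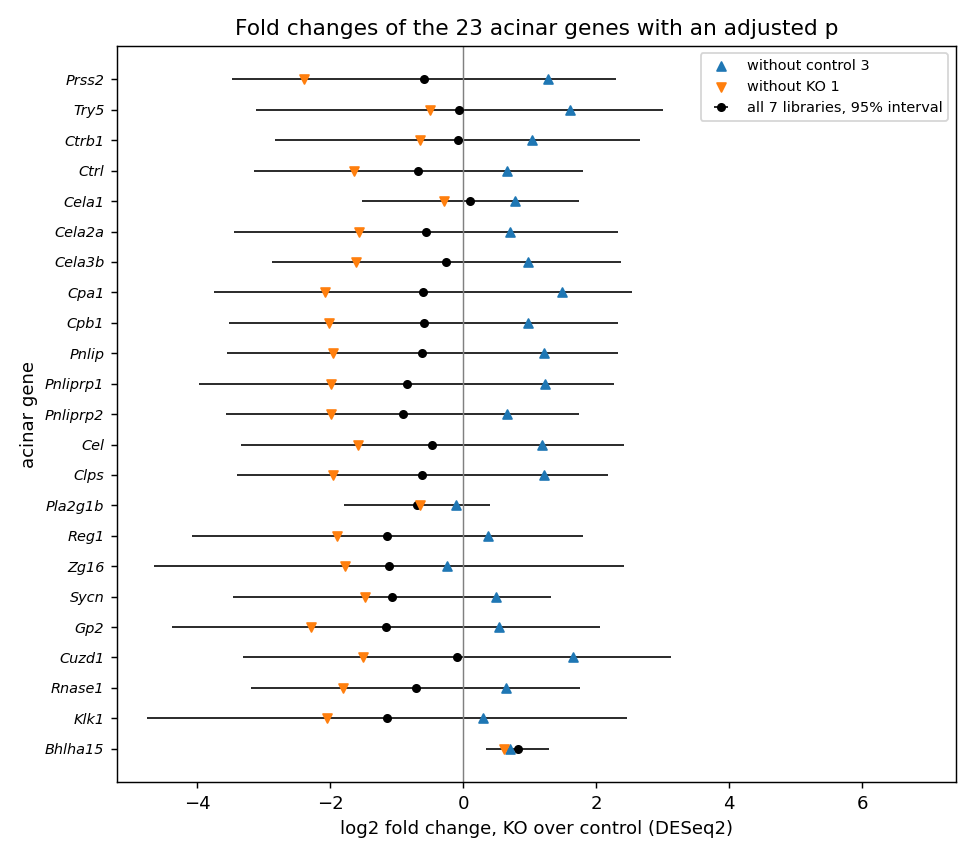
log2 fold change of KO over control from DESeq2 (x axis) for each of the 23 members with an adjusted p (y axis). Black points and lines give the value and 95% interval with all libraries, and triangles the values without control 3 (blue) and without KO 1 (orange), which lie on opposite sides of 0 for most genes but not for Bhlha15.

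A second list of acinar genes was not picked for how they moved, but was fixed with earlier results of these data known. It held 34 symbols, of which 32 were found and 14 had an adjusted p. Of these 14, 2 were called higher in KO and 1 lower, beside the 4.39% of all genes called. With edgeR none was called (smallest adjusted p 0.165), and 5 of the 23 with a DESeq2 p had an unadjusted one under 0.05, beside the 6.89% of all genes. Tmed6, of a family of proteins that carry cargo out of the endoplasmic reticulum, had 70.3, 133, 49.7 and 49.1 normalized counts in controls 1 to 4, against 301 in KO 1, 219 in KO 2 and 147 in the unnumbered KO. Its log2 fold change was 1.56 ± 0.44 (SE; DESeq2 adjusted p = 0.0143). Nr5a2, a nuclear receptor of acinar and other endodermal cells, had 90.8, 92.0, 107 and 62.2 in controls, and 162, 176 and 199 in KO libraries. Its log2 fold change was 1.03 ± 0.31 (SE; DESeq2 adjusted p = 0.0233). Gatm, an enzyme of creatine synthesis, had 1694, 1143, 1935 and 2113 in controls, and 1286, 890 and 939 in KO libraries. Its log2 fold change was -0.73 ± 0.22 (SE; DESeq2 adjusted p = 0.0291). In Tmed6 and Nr5a2 the groups did not overlap, while in Gatm KO 1 lay above control 2. These were 2 of the 14 genes tested, near the 11.9% of all genes. When each of the 7 libraries was left out in turn, the call passed 3 times for Tmed6, 1 time for Nr5a2 and 3 times for Gatm.

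Over all 7 libraries these 3 genes, like Bhlha15, did not follow Cpa1, with a Pearson r of 0.097 (Tmed6), 0.416 (Nr5a2) and 0.110 (Gatm). The Spearman rho was 0.25, 0.286 and 0.071, and the exact permutation p was at least 0.35 for the Pearson and 0.556 for the Spearman values. Adjusted over all genes tested, these permutation p-values of Pearson's r were 0.854 to 0.967. Without control 3 and control 4 the Pearson r was 0.253, 0.295 and 0.421, beside 0.847 for Bhlha15. Of the protease genes on the second list, Try4 (18.9 to 538 normalized counts) and 2210010C04Rik (11.8 to 816) ran with the members.

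**Figure D5:**
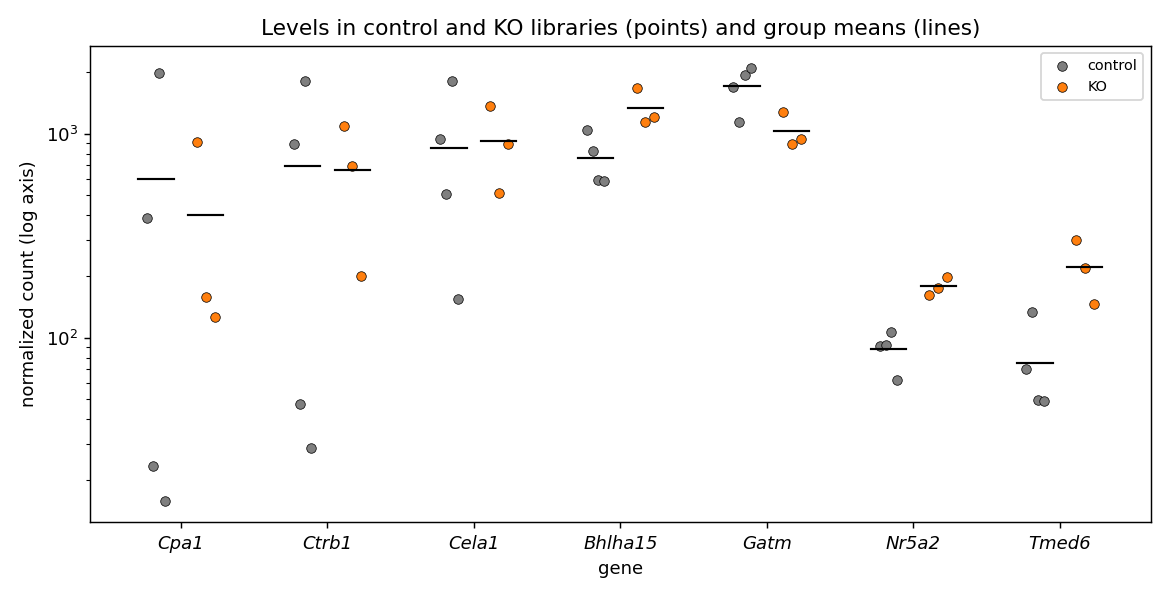
Normalized counts (y axis, log scale) of Cpa1, Ctrb1, Cela1, Bhlha15, Gatm, Nr5a2 and Tmed6 (x axis) in 4 control (grey) and 3 KO (orange) libraries, with group means as lines. The enzymes Cpa1, Ctrb1 and Cela1 spread widely within each group, and only in Bhlha15, Nr5a2 and Tmed6 do the groups not overlap.

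Pancreatic amylase, the starch-digesting enzyme, had no counts in most of its annotated genes. Amy2a1, Amy2a2, Amy2a3, Amy2a4 and Amy2a5 had 0 counts in every library. All exon words of Amy2a2, Amy2a3 and Amy2a4 occur in another amylase gene, and so do 94.9% of those of Amy2a1 and 57.2% of those of Amy2a5. The remaining words of Amy2a5 occur in no other annotated gene, and no read was counted there either. Amy2b, with 40.2% of its words shared, had 23.5 normalized counts in control 3, 13.7 in KO 1 and 9.08 in control 1, and was at 0 in controls 2 and 4. The order of libraries was that of Cpa1, at far fewer counts.

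PTF1 is known to bind an E-box (CANNTG) beside a TC-box (TTTCCC). The promoters of Ctrb1, Cela1 and Cpa1, which ran together and hold both motifs close by, are shown, and that of Bhlha15. Promoter sequences are from RefSeq on GRCm38.p6, 250 bases before to 50 bases after the start of the gene, and 29 of the 33 members matched (not Try5, Ctrc, Clps and Zg16). Each is printed along its gene's strand, with both motifs in capitals on either strand, so a TC-box on the opposite strand reads GGGAAA. An E-box was found in 24 of the 29 (82.8%), beside 72.3% of all 32851 promoters of this length, and a TC-box in 10 (34.5%), beside 25.2%. Both within 24 bases of each other were found in 6 (20.7%), beside 5.4%, namely Prss1, Ctrb1, Cela1, Cpa1, Cel and Reg3b. The pair lies 4 bases apart in Ctrb1 and Cela1 and 13 bases apart in Cpa1. Bhlha15 had 3 E-boxes and no TC-box in this window. Pnlip, which followed Cpa1 most closely, had neither motif in the window. Most members with a promoter here and an r of at least 0.9 with Cpa1 had no close pair. Besides Pnlip these were Prss2, Ctrl, Cela2a, Cela3b, Cpb1, Pnliprp1, Pnliprp2, Reg1, Gp2, Cuzd1, Rnase1 and Klk1. Prss1 and Reg3b had too few counts to be compared with Cpa1. These matches describe letters and not binding.
Ctrb1 promoter, chr8:111690961-111691260, minus strand: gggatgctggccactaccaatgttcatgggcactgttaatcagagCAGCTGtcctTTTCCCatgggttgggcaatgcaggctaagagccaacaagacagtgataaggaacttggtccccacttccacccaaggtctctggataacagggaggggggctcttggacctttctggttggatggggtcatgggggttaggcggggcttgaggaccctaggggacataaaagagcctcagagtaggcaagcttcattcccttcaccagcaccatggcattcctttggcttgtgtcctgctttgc
Cela1 promoter, chr15:100687871-100688170, minus strand: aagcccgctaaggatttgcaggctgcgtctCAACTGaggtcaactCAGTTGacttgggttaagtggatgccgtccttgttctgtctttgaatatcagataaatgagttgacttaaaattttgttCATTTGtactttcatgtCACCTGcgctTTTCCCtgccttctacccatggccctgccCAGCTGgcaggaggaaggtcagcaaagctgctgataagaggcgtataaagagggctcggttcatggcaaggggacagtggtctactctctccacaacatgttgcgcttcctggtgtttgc
Cpa1 promoter, chr6:30638968-30639267, plus strand: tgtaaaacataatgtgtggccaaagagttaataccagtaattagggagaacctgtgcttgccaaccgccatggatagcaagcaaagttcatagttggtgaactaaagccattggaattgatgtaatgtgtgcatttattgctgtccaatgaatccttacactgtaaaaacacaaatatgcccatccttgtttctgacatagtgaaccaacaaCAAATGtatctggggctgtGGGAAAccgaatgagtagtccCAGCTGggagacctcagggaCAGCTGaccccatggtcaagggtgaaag
Bhlha15 promoter, chr5:144190036-144190335, plus strand: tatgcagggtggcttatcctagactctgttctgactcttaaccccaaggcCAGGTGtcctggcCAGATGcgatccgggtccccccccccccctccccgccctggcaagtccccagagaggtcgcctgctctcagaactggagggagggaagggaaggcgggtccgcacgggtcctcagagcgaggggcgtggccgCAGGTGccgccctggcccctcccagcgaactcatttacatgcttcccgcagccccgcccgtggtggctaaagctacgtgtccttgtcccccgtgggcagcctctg

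Markers of cell types other than islet endocrine cells were also counted in the sorted libraries, and several of them varied widely. Those of other islet endocrine cells, with far higher summed counts, are not reported here. Of the duct markers, the osteopontin gene Spp1 was called higher in KO (647 to 695 normalized counts in controls and 776 to 1344 in KO libraries, DESeq2 adjusted p = 0.0252). Sox9 ranged from 94.1 to 586 in controls and from 682 to 1039 in KO libraries, and the chloride channel gene Cftr from 2.61 to 37.7 and from 60.6 to 72.3, without overlap but above the threshold (DESeq2 adjusted p = 0.173 and 0.169). Both were lowest in control 3, the library richest in enzymes. Krt7 (7488 to 11059), Krt19 (5.87 to 59.9) and Muc1 (88.5 to 162) overlapped between the groups.

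The 5 endothelial markers (Pecam1, Cdh5, Kdr, Plvap and Esam) summed to 369 to 556 in controls and 357 to 921 in KO libraries, with the highest sum in KO 2, where Cdh5 was 16.1-fold above its lowest library. The 5 mesenchymal markers (Col1a1, Col3a1, Pdgfra, Pdgfrb and Acta2) had 1825 in control 3, 1764 in KO 2 and 1198 in KO 1, and 558 to 873 in the other libraries, nearly all from the 2 collagen genes. The sum of the 5 leukocyte markers was highest in control 3, at 1524, beside 839 to 1095 in the other libraries. Of that sum 1305 came from C1qa, a complement gene of macrophages that was called lower in KO (DESeq2 adjusted p = 0.0116). Cd74 went the other way, with 10.1 to 123 in controls and 247 to 287 in KO libraries. Its groups did not overlap, but it stayed above the threshold (DESeq2 adjusted p = 0.142). Ptprc and Cd68 were highest in the unnumbered KO (31.1 and 128) and Lyz2 in control 3 (28.8), and all 3 overlapped between the groups. The part of other cells in the acinar values was not tested.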

How the data were processed

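Gene counts from RNA sequencing of sorted mouse alpha cells were analysed, in 4 control and 3 KO libraries. Libraries were strand-specific and made from low inputs of total RNA with a Takara SMARTer kit, per the labels' protocols. The authors deposited whole-number counts per gene, and the submitters' processing notes name FastQC, STAR, featureCounts, DESeq2 and the build mm10, without versions. The strand setting is not given in the sources used here. All 55536 identifiers are in GENCODE M21 (GRCm38), from which positions, exon overlap and 50-base words were taken. The words came from a single transcript of each gene, so exons outside it were not checked. All 7 count columns were used, and 0 were left out. The KO column numbered 4 matches no title and is called the unnumbered KO.

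Counts were fitted over all genes with DESeq2 1.42.0 under R 4.3.3 (its Wald test, default filters at 0.05, no covariate), which is the test the series' design text names, and Benjamini-Hochberg adjusted p-values under 0.05 were called. Genes without an adjusted p stayed without one. edgeR 4.0.16 (quasi-likelihood test) was the alternative. Library depth was 45483504 to 72456557 counts, so the number of libraries limits the abundant genes and depth the rare ones. Correlations used log2(normalized count + 1), genes with a mean normalized count of at least 10, and an exact two-sided permutation test over all 5040 orders of 7 libraries (scipy 1.17.1, numpy 2.4.6). Their p-values were adjusted over all genes, although the plan had named the members only.

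The members and lists were chosen with earlier results of these data known. Values per library are given for Nkx2-2, Cpa1, Cpb1, members past the threshold, the member with the highest per-length level in each role group, the 3 transcription factors and the 5 Reg genes. Further members and genes, among them Pla2g1b, Amy2b and Crispld2, were picked after their values were seen. From outside the members, genes past the threshold on the second acinar list and the 10 genes most like Cpa1 are named. The alternatives tried were edgeR, library totals as size factors, other filters, a replicate block, a covariate, another reference gene, another pseudocount and leaving out libraries. The scripts were tested on simulated data. Some listed genes are not reported here.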

Additional observations from a re-analysis of the deposited data

Results flagged for a closer look

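Reg3b, which encodes a lectin that acinar cells raise in inflammation, had 20.4 normalized counts in control 1 and 0 in the other 3 controls, so that control 1 lay apart from its group. The value rests on 18 counts. Of 20 genes and sums checked in this way in the 4 controls, 1 lay apart, and chance alone gives about 1 in 20. Groups of 3, such as the KO libraries, are too small for this check.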

How the results depend on the processing

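Low counts limit 10 of the 33 members, and the spread between libraries limits the rest. The number of members called was 1 in DESeq2 and 0 in edgeR, and 0 to 1 when each library was left out. The second acinar list had 3 calls in DESeq2, 0 in edgeR, 1 without the 2 deepest libraries and 0 to 2 when each library was left out. Leaving out 1 library at a time moved the log2 fold change of Cpa1 from -2.08 to 1.48, Cpb1 from -2.02 to 0.98, Prss2 from -2.39 to 1.28, Ctrb1 from -0.65 to 1.03, Cela1 from -0.29 to 0.78, Pnlip from -1.96 to 1.22, Reg1 from -1.90 to 0.37, Sycn from -1.49 to 0.49 and Rnase1 from -1.80 to 0.64. The lowest of these values came without KO 1 and the highest without control 3, except the lowest of Sycn, which came without control 2. For genes with few counts the ranges were -5.03 to 3.84 (Reg3b), -1.88 to 0.98 (Ptf1a) and -1.27 to 2.56 (Rbpjl). With library totals as size factors the log2 fold changes of all genes shifted by a median of 0.10, and that of Ctrb1 became 0.04. Without the 2 deepest libraries Cela1 had -0.21. With the Cpa1 level as a covariate, added after seeing the data, Ctrb1 had 0.55 and Reg3b 0.02. Cpa1 itself had 0.02 there, near 0 by construction, since its own level was the covariate. The number of members with an r of at least 0.9 with Cpa1 stayed at 15 to 19 of 22 under every alternative run.

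Control and KO libraries share the replicate numbers 1 and 2 in the labels, and 4 in the columns, and nothing says that a number marks a shared animal or day. Deviations from the group means of same-numbered libraries correlated at 0.12, 0.19 and 0.34, and those of control 3 and KO 2, which share no number, at 0.29. With the number as a replicate block, control 3 no longer enters the comparison, since its number has no partner. The few pairs left hardly measure the spread of a gene, so the calls below are uncertain. With the column numbers, 8 members were called, all higher in KO (Bhlha15, Cel, Cpa1, Cpb1, Pnlip, Pnliprp1, Rnase1 and Try5), beside 2.91% of all genes called higher, and 5 genes of the second list were called. The block by column numbers gave log2 fold changes of 2.25 for Cpa1, 1.67 for Cpb1, 1.27 for Prss2, 2.37 for Ctrb1, 1.91 for Pnlip, 1.71 for Reg1, 1.11 for Sycn, 1.01 for Rnase1 and 1.35 for Ptf1a. With the label numbers only, a block added after seeing the data, in which the unnumbered KO has no partner either, 3 members (Cpa1, Cpb1 and Pnliprp1) and 0 genes of the second list were called, beside 1.69% of all genes called higher. That block gave 1.87 for Cpa1, 1.44 for Cpb1, 0.91 for Prss2, 2.07 for Ctrb1, 1.70 for Pnlip, 1.05 for Reg1, 2.2 for Sycn, 0.86 for Rnase1 and 1.90 for Ptf1a.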
